A study of Mus musculus with 6 samples.

Results

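The 8 genes described here encode proteins of the eosinophil granule or are characteristic of eosinophils and their precursors. They were found by symbol in a count table of 26027 genes, and all 8 were present. Prg2, Prg3, Epx, Ear1, Ear2 and Ear6 encode granule proteins, whereas Il5ra encodes a cytokine receptor chain and Alox15 an enzyme, so the name of the group fits the first 6 only. The genes were picked because their differences between genotypes ran in opposite directions in replicates 1 and 2 and in replicate 3. That pattern is therefore given as a description, with no test.

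Libraries were made from ribosome-depleted total RNA of Lin-/cKit+/eYFP+ cells sorted from whole bone marrow of C57BL/6 mice, with 3 libraries of Srsf2 P95H/+ and 3 of Srsf2 +/+ (wild type, WT). Every mouse carried hScl-CreERT, a tamoxifen-inducible Cre named for the blood stem cell gene Scl, together with the R26eYFP reporter, and every mouse received tamoxifen, so the WT cells also went through Cre recombination. The driver limits recombination to cells in which the Scl element is active, and the sort kept cells that carried the reporter. P95H/+ replicates 1 and 2 came from females and P95H/+ replicate 3 from a male, all 32 weeks old. The mouse behind WT replicate 1 was a 54-week-old female, while WT replicates 2 and 3 were male and 32 weeks old. Genotype, sex and age are thus not balanced, and within a genotype replicate 3 cannot be told apart from male sex in P95H/+. The labels do not say whether a library stands for 1 mouse or a pool, so any p-value measures only the spread between these libraries.

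Eosinophils are granulocytes that store basic proteins in large granules and release them onto parasites and inflamed tissue. The crystalline core of the granule is made of major basic protein, and the surrounding matrix holds a peroxidase and ribonucleases. Much of the granule protein is made in bone marrow precursors, and interleukin 5, acting through its receptor, drives the expansion of this lineage. Srsf2 encodes a splicing factor of the SR family, and the P95H change is found in human myeloid neoplasms.

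The sequence just before the transcription start is shown for Epx and Prg3, as representatives of the granule matrix and core, for the near-identical pair Ear1 and Ear2, and for the receptor gene Il5ra. Each is the 250 bases before the RefSeq start on GRCm38.p6, read 5′ to 3′ on the strand of the gene, and the table held 6 of the 8 genes. For Ear1 and Ear6 that start lies inside the gene as GENCODE annotates it. Capitals mark, on either strand, the letters of a GATA factor motif or of a C/EBP motif, families of transcription factors that act in eosinophil development. The GATA letters searched were AGATAA or its relative TGATAA, and also AGATAG as well as the form TGATAG, and the C/EBP letters were TTNNGCAA.
Epx, chr11:87875537-87875786, minus strand: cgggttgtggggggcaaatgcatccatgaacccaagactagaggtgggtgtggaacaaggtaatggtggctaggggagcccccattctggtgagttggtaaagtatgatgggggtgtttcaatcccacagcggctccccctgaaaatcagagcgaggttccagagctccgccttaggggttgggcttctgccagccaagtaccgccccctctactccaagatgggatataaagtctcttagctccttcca
Prg3, chr2:84987965-84988214, plus strand: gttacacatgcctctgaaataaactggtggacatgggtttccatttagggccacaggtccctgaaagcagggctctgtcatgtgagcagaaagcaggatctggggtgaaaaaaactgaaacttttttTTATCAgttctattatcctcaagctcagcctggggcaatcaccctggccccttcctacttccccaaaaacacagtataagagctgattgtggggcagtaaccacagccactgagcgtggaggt
Ear1, chr14:43819640-43819889, minus strand: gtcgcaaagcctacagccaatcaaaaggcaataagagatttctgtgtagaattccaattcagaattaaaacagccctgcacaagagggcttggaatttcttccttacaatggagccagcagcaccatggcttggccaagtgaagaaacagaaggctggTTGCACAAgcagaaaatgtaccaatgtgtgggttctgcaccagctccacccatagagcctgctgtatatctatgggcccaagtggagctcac
Ear2, chr14:44102404-44102653, plus strand: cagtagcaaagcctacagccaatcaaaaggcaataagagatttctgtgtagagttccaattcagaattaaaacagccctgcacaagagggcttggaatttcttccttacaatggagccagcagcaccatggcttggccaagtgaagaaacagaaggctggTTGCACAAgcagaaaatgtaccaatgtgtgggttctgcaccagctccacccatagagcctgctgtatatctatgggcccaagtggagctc
Il5ra, chr6:106749038-106749287, minus strand: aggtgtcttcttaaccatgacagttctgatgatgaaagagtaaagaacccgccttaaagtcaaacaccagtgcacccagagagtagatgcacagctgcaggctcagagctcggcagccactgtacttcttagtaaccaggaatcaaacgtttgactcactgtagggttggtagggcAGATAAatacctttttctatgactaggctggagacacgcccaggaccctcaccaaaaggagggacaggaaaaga
GATA letters were found in 2 of the 6 windows, in Prg3 from 123 to 118 bases before the start and in Il5ra from 74 to 69 bases before it. Of 32851 promoter windows of this length, 26.5% held them. C/EBP letters were found in 2 of 6 windows, Ear1 and Ear2, where 9.56% of all windows held them. The windows of Ear1 and Ear2 matched at 99.2% of 248 aligned bases, so they count as copies of each other, and the window of Ear6 matched that of Ear1 at 92.6% without the C/EBP letters. The matches did not overlap, and a match of letters does not show that a factor binds there.

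Library totals ran from 10747941 to 22614408 counts in P95H/+ and from 16842751 to 23010510 in WT. Levels are given as CPM, the count of a gene scaled to the same total in every library. Counts of Srsf2 itself, which do not show the base change, came to 315 to 342 CPM in P95H/+ and 324 to 343 CPM in WT. Kit, the receptor used for sorting, stood between 476 and 548 CPM in P95H/+ and between 482 and 532 CPM in WT. Both replicate 3 libraries stood apart by base composition. Genes with a transcript GC content above 55% lay higher in P95H/+ replicate 3 by a median log2 difference of 0.63 and in WT replicate 3 by 0.49, compared with the mean of the other 4 libraries. Genes at or below 45% GC lay at -0.78 and -0.50 in the same libraries.

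On the sum of the 8 genes, the 3 P95H/+ libraries were close to each other and the WT libraries were not. The summed level was 359, 354 and 344 CPM in P95H/+ replicates 1, 2 and 3, against 199, 166 and 850 CPM in WT replicates 1, 2 and 3. Prg2 made up 38.5 to 57.9% of the sum and Epx 19.6 to 43.6%, and in P95H/+ replicate 3 these moved in opposite directions, Prg2 to 0.678 and Epx to 1.65 times the mean of P95H/+ replicates 1 and 2. All 3 P95H/+ sums lay above WT replicates 1 and 2 and below WT replicate 3. WT replicate 3 was the highest of the 6 libraries for 7 of the 8 genes, Alox15 being the exception, where 21.2% of the 17144 genes that passed a filter on low counts were highest in that library. For 5 genes, Prg2, Prg3, Epx, Ear1 and Ear6, every P95H/+ library lay above WT replicates 1 and 2 and below WT replicate 3, an arrangement shared by 2.89% of the genes tested. The differences that the genes were picked for favour both of these features, so nothing is read from setting the counts beside these shares. All 8 genes passed that filter. In sorted cells measured in bulk, a smaller number of eosinophil precursors and less of these transcripts per precursor cannot be told apart.

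**Figure D1:**
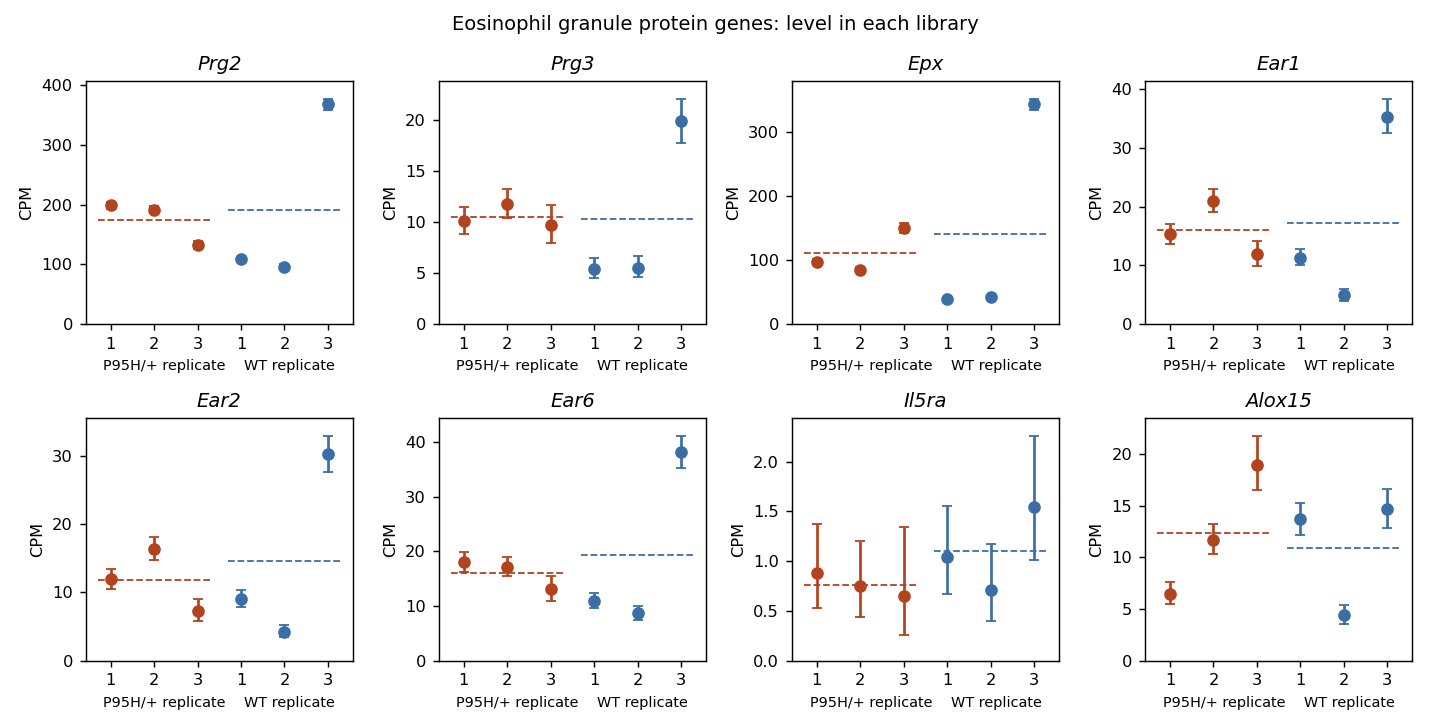
Level of each gene in CPM (vertical axes, linear, from 0) in the 3 P95H/+ libraries (left, orange) and the 3 WT libraries (right, blue). Bars are exact Poisson 95% intervals for counting error and dashed lines are group means, and WT replicate 3 is the highest library in all panels except that of Alox15.

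Prg2 encodes major basic protein, the core protein of the granule, and it was the most abundant of the genes for its length. It lies on mm10 chromosome 2 at 84980461 to 84983632 (ENSMUSG00000027073, plus strand, protein coding). Prg2 stood at 199, 191 and 132 CPM in P95H/+ replicates 1, 2 and 3, against 109, 96.2 and 368 CPM in WT. The groups overlapped, because WT replicate 3 was 3.59 times the mean of WT replicates 1 and 2. Means were 174 ± 36.5 CPM in P95H/+ and 191 ± 153 CPM in WT (SD, n = 3 each), and the fitted log2 fold change was -0.05 (SE 0.51).

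Prg3 encodes a homolog of major basic protein and lies 4582 bases from Prg2 on the same strand, at 84988215 to 84993886 (ENSMUSG00000027072, protein coding). Prg3 stood at 10.1, 11.8 and 9.68 CPM in P95H/+, against 5.43, 5.54 and 19.9 CPM in WT. P95H/+ libraries were close to each other, with WT replicates 1 and 2 lower and WT replicate 3 higher. Means were 10.5 ± 1.13 CPM in P95H/+ and 10.3 ± 8.32 CPM in WT (SD, n = 3 each). The longest transcripts of Prg2 and Prg3 matched at 65.5% of aligned bases, and no stretch of 150 bases of either was found in a transcript of another gene. Within a library, Prg2 had 19.7, 16.2 and 13.7 times the CPM of Prg3 in P95H/+ replicates 1, 2 and 3, and 20, 17.4 and 18.5 times in WT, so the ratio of the neighbours stayed between 13.7 and 20, while Prg2 itself spanned 3.82-fold and Prg3 3.66-fold.

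Epx encodes eosinophil peroxidase, which makes hypobromous acid from hydrogen peroxide and bromide, and it varied most between libraries. It lies on chromosome 11 at 87864000 to 87875536 (ENSMUSG00000052234, minus strand, protein coding), beside Lpo and Mpo, the genes of lactoperoxidase and myeloperoxidase. Epx stood at 96.7, 84.3 and 150 CPM in P95H/+ replicates 1, 2 and 3, against 39.0, 41.4 and 343 CPM in WT. WT replicate 3 held 8.52 times the mean of WT replicates 1 and 2, and P95H/+ replicate 3 held 1.65 times the mean of P95H/+ replicates 1 and 2. Among the 6 granule protein genes Epx, which has the highest GC content, was the only one higher in P95H/+ replicate 3 than in the other P95H/+ libraries. After a correction for GC content that excess was 0.15 on the log2 scale. The other granule protein genes were then at 0.06 (Ear1), -0.19 (Ear6), -0.25 (Ear2), -0.30 (Prg3) and -0.83 (Prg2). The part of GC content in the excess of Epx was not tested. Means were 110 ± 34.7 CPM in P95H/+ and 141 ± 175 CPM in WT (SD, n = 3 each), so the SD in WT exceeded its mean.

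Ear1, Ear2 and Ear6 belong to the eosinophil-associated ribonucleases, a rodent family related to the human eosinophil cationic protein and eosinophil-derived neurotoxin. All 3 are protein-coding genes of chromosome 14. Ear1 (ENSMUSG00000072601) lies at 43818765 to 43875517 on the minus strand, Ear2 (ENSMUSG00000072596) at 44102654 to 44103534 and Ear6 (ENSMUSG00000062148) at 51853699 to 51854643, both on the plus strand. Ear1 stood at 15.3, 20.9 and 11.9 CPM in P95H/+, against 11.3, 4.88 and 35.3 CPM in WT. Ear2 stood at 11.9, 16.3 and 7.26 CPM in P95H/+, against 9.08, 4.26 and 30.2 CPM in WT. Both genes were highest in WT replicate 3 and lowest in WT replicate 2, and the groups overlapped.

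Ear6 stood at 18.0, 17.2 and 13.1 CPM in P95H/+, against 11, 8.67 and 38.2 CPM in WT. Like Prg3, it was lower in WT replicates 1 and 2 and higher in WT replicate 3 than in any P95H/+ library. Transcripts of Ear1 and Ear2 matched at 96.8% of aligned bases, and those of Ear6 matched Ear1 at 85.2% and Ear2 at 85.3%. Of the 150-base windows of Ear1, 5.67% were also found in Ear-ps9, and 6.32% of those of Ear2 in Ear10, which was not analysed here. The exons of Ear1 and Ear-ps9 also share 17 bases on the same strand. The counts of Ear1 and Ear2 are uncertain to a degree that was not measured, since the way the authors' counting treated reads that match several genes is not given in the sources used here. Ear1 had 1.29, 1.28 and 1.64 times the count of Ear2 in P95H/+ replicates 1, 2 and 3, and 1.24, 1.14 and 1.17 times in WT.

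Il5ra encodes the alpha chain of the interleukin 5 receptor, which binds the cytokine and pairs with the common beta chain. It lies on chromosome 6 at 106710357 to 106749037 (ENSMUSG00000005364, minus strand, protein coding). Il5ra stood at 0.877, 0.752 and 0.651 CPM in P95H/+, against 1.04, 0.711 and 1.54 CPM in WT. These values rest on 7 to 26 counts a library, and the 95% counting interval of P95H/+ replicate 3 ran from 0.262 to 1.34 CPM. Over replicates 1 and 2, Il5ra in P95H/+ was 0.919 times that in WT, with an exact 95% interval of 0.568 to 1.48 for counting error. The ratio of the 6 granule protein genes there was 1.78 to 2.25. That interval leaves out the spread between libraries, and the genes were picked on these differences. Nothing is therefore read from setting the ratios beside each other.

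Alox15 encodes a lipoxygenase that oxidises arachidonic and linoleic acid and is also made by macrophages. It lies on chromosome 11 at 70344152 to 70352031 (ENSMUSG00000018924, minus strand, protein coding). Alox15 stood at 6.51, 11.7 and 19.0 CPM in P95H/+ replicates 1, 2 and 3, against 13.7, 4.41 and 14.7 CPM in WT. It was highest in P95H/+ replicate 3 and lowest in WT replicate 2, whereas the other 7 genes were highest in WT replicate 3. Its centred log2 profile over the 6 libraries lay 0.70 from the mean profile of the other members by root mean square, the largest such distance, against 0.17 for Ear6 and 0.21 for Prg3.

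**Figure D2:**
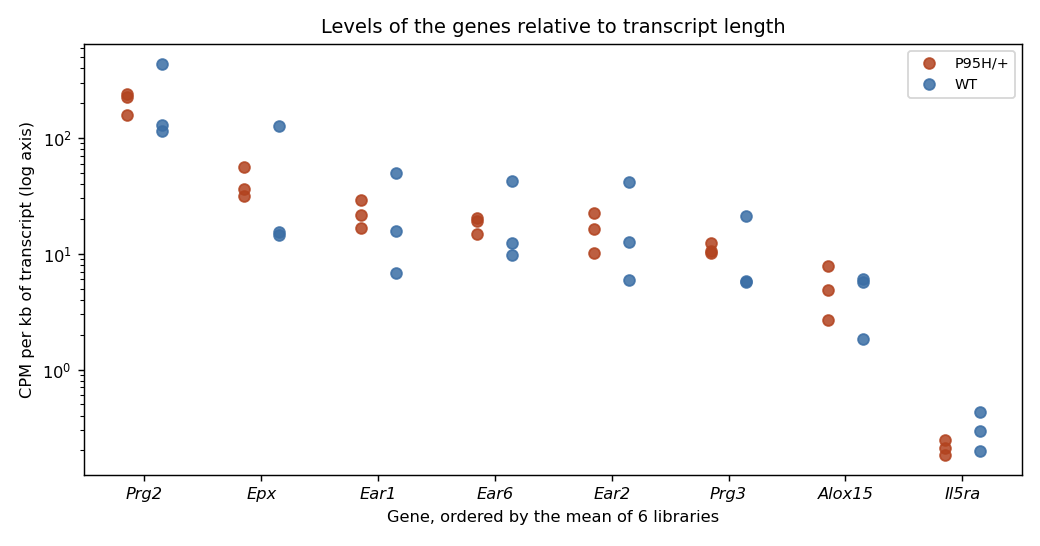
CPM per kilobase of the longest annotated transcript (vertical axis, log scale) for each gene, with 1 point per library, P95H/+ in orange left of WT in blue. Prg2 is the highest gene and Il5ra the lowest in every library.

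Per kilobase of the longest transcript, the 8 genes stood far apart in level. Prg2 averaged 218 CPM per kilobase over the 6 libraries, with 115 in the lowest and 439 in the highest, and held rank 216 of 25878 annotated genes. Epx followed at 41.0 ± 12.9 CPM per kilobase in P95H/+ and 52.4 ± 64.9 in WT (SD, n = 3 each). Ear1, Ear6 and Ear2 stood at 22.5 ± 6.38, 18.0 ± 2.94 and 16.4 ± 6.30 CPM per kilobase in P95H/+ and at 24.1 ± 22.5, 21.6 ± 18.4 and 20.2 ± 19.2 in WT, and these 3 neighbours changed order between libraries. Prg3 averaged 11.1 ± 1.19 CPM per kilobase in P95H/+ and 10.8 ± 8.76 in WT, and Alox15 5.15 ± 2.60 in P95H/+ and 4.53 ± 2.35 in WT. Il5ra, at 0.213 ± 0.0316 CPM per kilobase in P95H/+ and 0.307 ± 0.117 in WT, ranked 18686. In all 6 libraries Prg2 was first, Alox15 was below the granule protein genes and Il5ra was last, and Epx was second in every library except WT replicate 1, where Ear1 was.

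Set side by side by replicate number, the 6 granule protein genes were higher in P95H/+ in numbers 1 and 2 and lower in number 3. The labels do not state an animal or day shared within a number. Number 1 sets mice of unlike age side by side, number 2 mice of unlike sex, and number 3 males of the same age. On the scale of log2(CPM + 0.5), Prg2 differed between P95H/+ and WT by 0.87 and 0.99 in numbers 1 and 2 and by -1.47 in number 3. Epx differed by 1.3 and 1.02 and then by -1.19, and Prg3 by 0.84 and 1.03 and then by -1.0. Ear6 differed by 0.69 and 0.95 and then by -1.51. In Ear1 and Ear2 number 2 exceeded number 1, with 1.99 against 0.42 for Ear1 and 1.82 against 0.37 for Ear2. Both genes were higher in P95H/+ replicate 2 than in P95H/+ replicate 1, and lower in WT replicate 2 than in WT replicate 1. Their number 3 values were -1.53 and -1.98. Il5ra differed by -0.16, 0.05 and -0.83 and Alox15 by -1.02, 1.32 and 0.36, so neither showed the pattern the genes were picked for. In the windows searched, GATA letters were present before Prg3, which had that pattern, and before Il5ra, which did not. They were absent before Epx, Ear1, Ear2 and Ear6, which had it. A link between the letters and the pattern was not tested. The pattern of higher, higher and lower was found in 6 of the 8 genes and in 14.1% of all genes tested, and the reverse pattern in 0 of 8 and 14.5%. Since the genes were picked for it, nothing is read from these counts.

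**Figure D3:**
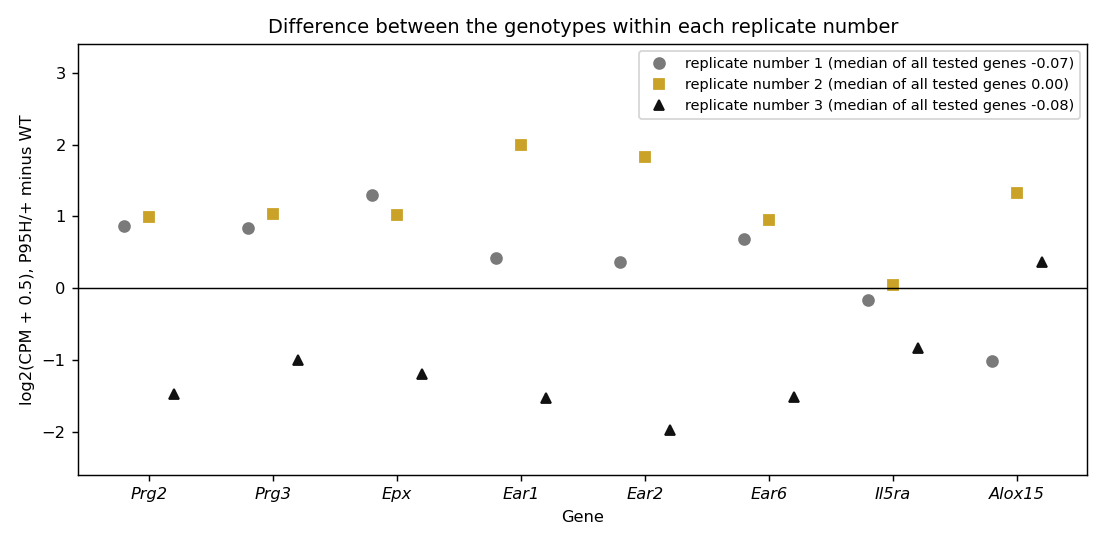
Difference of log2(CPM + 0.5), P95H/+ minus WT (vertical axis), for each gene within replicate numbers 1 (circles), 2 (squares) and 3 (triangles). The 6 granule protein genes lie above 0 in numbers 1 and 2 and below 0 in number 3, while the medians of all genes tested are between -0.08 and 0.00.

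The means of the 2 genotypes hide this arrangement. With all 6 libraries the fitted log2 fold changes of P95H/+ over WT were -0.25 (SE 0.82) for Epx, 0.12 (SE 0.51) for Prg3, -0.01 (SE 0.64) for Ear1, -0.21 (SE 0.66) for Ear2, -0.17 (SE 0.54) for Ear6, -0.42 (SE 0.36) for Il5ra and 0.27 (SE 0.54) for Alox15. The median of the 8 genes was -0.11, beside 0.02 for all genes tested. By edgeR's quasi-likelihood test with Benjamini-Hochberg adjustment, 0 of 17144 genes (0%) passed an adjusted p of 0.05, 0 of the 8 among them, and 361 genes had an unadjusted p under 0.05. DESeq2 called 8 genes (0.0467%), limma voom 0 (362 unadjusted) and voom with sample quality weights 97 (0.566%). With replicate numbers entered as blocks 1 gene (0.00583%) passed, and the median of the 8 genes was then 0.27. The same share, 0.00583%, passed when a GC correction was added, and 0 of the 8 genes passed in any of these fits. The CPM ranges of the groups overlapped for all 8 genes, whereas they did not overlap for 7.84% of genes tested. Opposite differences between replicates, which the genes were picked for, make overlap unavoidable in the granule protein genes.

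Leaving out a single library, WT replicate 3, turned the sign of the median. Without it 1 of 17649 genes (0.00567%) passed, 0 of the 8 among them, and the median log2 fold change of the 8 genes was 0.86, with 7 of 8 positive, Il5ra being the exception. Without WT replicate 2 the median was -0.48 with 0 of 8 positive. Without replicate 3 of both genotypes the fitted log2 fold changes were 1.20 (SE 0.10) for Epx, 0.96 (SE 0.09) for Prg2, 1.03 (SE 0.17) for Prg3, 0.87 (SE 0.15) for Ear6, 1.19 (SE 0.45) for Ear1, 1.10 (SE 0.38) for Ear2, -0.08 for Il5ra and 0.04 for Alox15. In that comparison of 2 against 2 libraries 144 of 17371 genes (0.829%) passed, with 4 of the 8 genes, Epx, Prg2, Prg3 and Ear6, among them. The genes were picked on these differences, so nothing is read from that count either.

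The size of the step within WT can be placed among all genes as a description. The differences that the genes were picked for favour high places, so nothing is read from the ranks. Ranked by WT replicate 3 over the mean of WT replicates 1 and 2 on the log2 scale, Epx was number 2 of 17144 genes, Ear2 number 8, Ear1 number 9, Ear6 number 12, Prg2 number 13 and Prg3 number 17. Alox15 was number 598 and Il5ra number 2242. Ranked by the mean of P95H/+ replicates 1 and 2 over that of WT replicates 1 and 2, the same 6 genes were at numbers 36 to 85, with Ear1 first and Ear6 last, and Alox15 and Il5ra at numbers 2996 and 9467.

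The values of the genes in the replicate 3 libraries were set beside those of genes of like base composition. Transcript GC content was 56.3% for Epx, 52.9% for Prg2, 52.1% for Alox15, 51.5% for Prg3, 48.3% for Ear6, 44.2% for Ear1, 44.1% for Ear2 and 42.7% for Il5ra. Relative to the mean of the 4 other libraries, Epx lay 1.31 higher on the log2 scale in P95H/+ replicate 3 and 2.5 higher in WT replicate 3. Genes within 2 percentage points of its GC content had medians of 0.52 and 0.43 there. Ear2 lay at -0.35 in P95H/+ replicate 3, where genes of like GC content had a median of -0.56, and at 1.64 in WT replicate 3, where their median was -0.30. Prg2 lay at -0.09 and 1.38 in these libraries, beside medians of 0.24 and 0.26.

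The ratio of Epx to Prg2 was highest in the replicate 3 libraries of both genotypes. It was 1.13 in P95H/+ replicate 3 and 0.932 in WT replicate 3, against 0.485 and 0.441 in P95H/+ replicates 1 and 2 and 0.358 and 0.430 in WT replicates 1 and 2. After a correction for GC content the difference between P95H/+ and WT in number 3 was -1.29 for Epx, -1.45 for Prg2, -0.94 for Prg3, -1.3 for Ear1, -1.75 for Ear2 and -1.35 for Ear6. In numbers 1 and 2 the corrected differences of these 6 genes stayed between 0.48 and 1.97. The directions were those of the uncorrected values, and the corrected excess of WT replicate 3 over WT replicates 1 and 2 was 2.68 for Epx and 1.62 for Prg2 on the log2 scale.

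**Figure D4:**
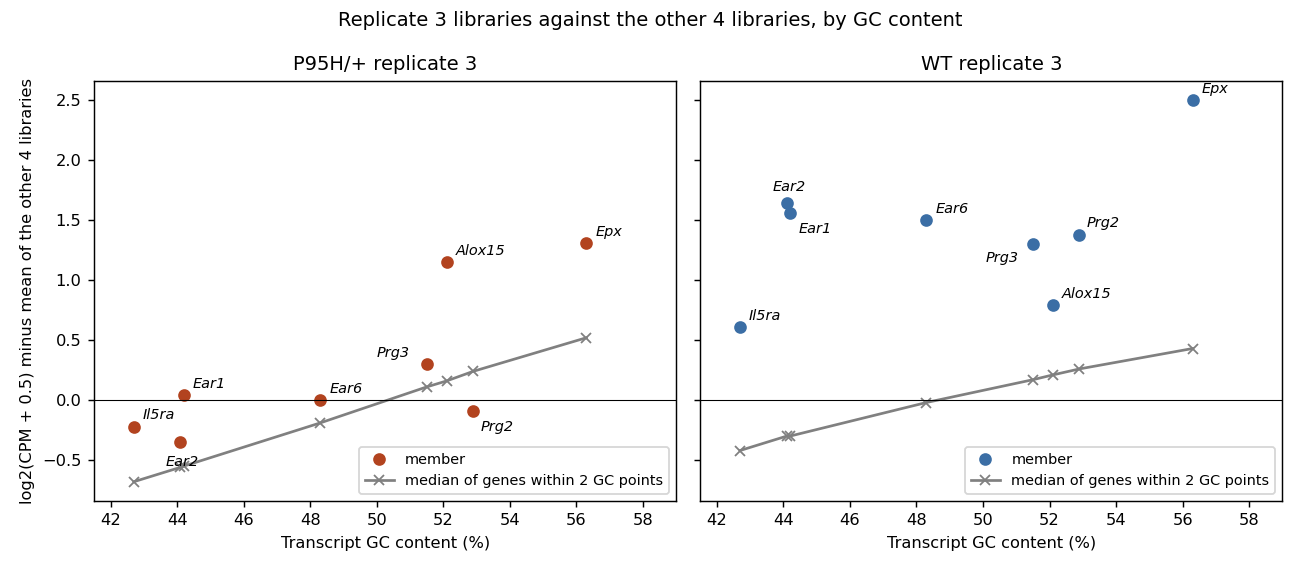
Log2(CPM + 0.5) of each gene in a replicate 3 library minus the mean of the other 4 libraries (vertical axis) against the GC content of its longest transcript (horizontal axis, percent), for P95H/+ replicate 3 (left) and WT replicate 3 (right). Crosses are medians of all genes of like GC content, and all 8 genes lie above them in WT replicate 3.

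Other genes of eosinophils and their precursors were taken from lists of surface proteins, transcription factors and receptor signalling. For the counts of positive log2 fold changes given for each list, the share over all genes tested was 53.1%. Siglecf, a sialic acid receptor of mature eosinophils, stood at 30.7, 32.0 and 41.7 CPM in P95H/+, against 24.8, 28.1 and 36.6 CPM in WT, a log2 fold change of 0.30 (SE 0.24) that did not pass edgeR's test at an adjusted p of 1. Ccr3, the eotaxin receptor, stood at 0.277, 1.72 and 1.67 CPM in P95H/+, against 1.74, 0.332 and 0.712 CPM in WT. WT replicate 3 held the middle value of its group for Ccr3 and the highest for Siglecf. Of 12 tested surface proteins of eosinophils, 0 passed the test, 7 were positive, and their median log2 fold change was 0.03. Their summed level was 223 to 237 CPM in P95H/+ and 219 to 268 CPM in WT, and Cd63, a granule membrane protein of many cells, was the most abundant at 69.9 to 111 CPM in P95H/+ and 89.9 to 140 CPM in WT.

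Of 14 lineage transcription factors, all tested, 0 passed and 10 were positive, with a median of 0.13. Gata1, a factor of the erythroid and eosinophil lineages, stood at 44.3, 38.6 and 99.0 CPM in P95H/+, against 29.4, 33.1 and 67.9 CPM in WT, and Cebpe, a factor of terminal granulocyte maturation, at 44.8, 27.2 and 76.5 CPM in P95H/+, against 29.7, 32.7 and 67.0 CPM in WT. Both were highest in the replicate 3 library of each genotype, as were 7 of the 14 factors. Their transcripts had GC contents of 55.2% and 61.5%, in the range where genes in general lay higher in these libraries. Whether GC content had a part in the high levels of these genes there was not tested. Ikzf1 and Irf8, the most abundant of the list, differed by log2 fold changes of 0.15 (SE 0.18) and 0.04 (SE 0.21). Of 19 tested genes of interleukin 5 receptor signalling, 0 passed and 12 were positive, with a median of 0.07. Csf2rb, the common beta chain that Il5ra pairs with, came to 134, 155 and 184 CPM in P95H/+, against 144, 147 and 193 CPM in WT. Syk and Jak1, kinases of cytokine and immune receptors, differed by 0.08 (SE 0.27) and 0.10 (SE 0.21) in log2 fold change.

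Among relatives of the granule proteins, Mpo had the same arrangement of libraries as Epx, with smaller steps. Mpo, the peroxidase of neutrophils and monocytes, shares 70.5% of aligned transcript bases with Epx. Its level was 5216, 4924 and 5338 CPM in P95H/+, against 4013, 4568 and 6367 CPM in WT. Epx amounted to 0.0185, 0.0171 and 0.0280 of the count of Mpo in P95H/+ replicates 1, 2 and 3, and to 0.00973, 0.00905 and 0.0538 in WT, so the arrangement was also present in the ratio. Of 9 tested peroxidase and oxidase genes 0 passed and 6 were positive, with a median of 0.02, and Rac2, a subunit of the phagocyte oxidase, differed by 0.15 (SE 0.28). The summed level of that list, which Mpo dominates, was 6253, 5908 and 6620 CPM in P95H/+, against 5013, 5594 and 7605 CPM in WT. Lpo stood at 11.9, 7.92 and 8.47 CPM in P95H/+, against 8.69, 7.16 and 14.4 CPM in WT, and was likewise higher in P95H/+ in numbers 1 and 2 and lower in number 3. Of 17 listed ribonuclease A relatives, 5 were analysed here and 4 tested, 0 passed and 3 were positive, with a median of 0.03. Rnase6 and Rnase4 stood at 4.0 to 9.11 and 2.88 to 4.15 CPM in P95H/+ and at 4.99 to 9.43 and 1.66 to 4.65 CPM in WT. Of 12 tested lipoxygenase and eicosanoid genes 0 passed and 7 were positive, with a median of 0.06, and Lta4h and Alox5ap, enzymes or cofactors of leukotriene synthesis, differed by 0.21 (SE 0.19) and 0.01 (SE 0.22) in log2 fold change. That list summed to 756, 747 and 673 CPM in P95H/+, against 672, 627 and 760 CPM in WT. Its P95H/+ sums also lay above WT replicates 1 and 2 and below WT replicate 3, in part narrowly.

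Markers of other cells that the sort could hold were compared in the same libraries. The sum of the 6 neutrophil primary granule markers showed the arrangement of the eosinophil genes. They summed to 9697, 8643 and 9746 CPM in P95H/+, against 6893, 8007 and 11910 CPM in WT, so that every P95H/+ library lay above WT replicates 1 and 2 and below WT replicate 3. That held for 4 of the 6 markers, Mpo, Elane, Prtn3 and Prss57, beside 2.89% of all genes tested, and not for Ctsg and Ms4a3. Transcript GC content was 56.4, 57.4, 60.7 and 54.1% for those 4, against 51.5% for Ctsg and 40.0% for Ms4a3. Genes of high GC content in general lay higher in both replicate 3 libraries. The part of GC content in this arrangement was not tested. The median differences of the 6 markers were 0.62, 0.14 and -0.36 on the log2 scale in numbers 1, 2 and 3. WT replicate 3 was 1.60 times the mean of WT replicates 1 and 2 on this sum, and 4.65 times on the sum of the eosinophil genes. The 12 late neutrophil markers summed to 385 to 1905 CPM in P95H/+ and 324 to 1040 CPM in WT, with P95H/+ replicate 3 highest at 4.29 times the mean of P95H/+ replicates 1 and 2. Basophil and mast cell markers summed to 379 to 476 CPM in P95H/+ and 359 to 510 CPM in WT. Their sum was lowest in WT replicate 3, though not every marker was lower there than in the other WT libraries. Monocyte and macrophage markers summed to 1201 to 1869 CPM in P95H/+ and 1492 to 1808 CPM in WT, and erythroid markers to 998 to 2187 CPM in P95H/+ and 1199 to 1499 CPM in WT. P95H/+ replicate 3 was also the highest library for erythroid markers, at 1.91 times the mean of P95H/+ replicates 1 and 2, and for B and T cell markers, at 2.87 times. B and T cell markers summed to 38.2 to 120 CPM in P95H/+ and 51.8 to 94.6 CPM in WT, and progenitor markers to 1815 to 2009 CPM in P95H/+ and 1729 to 2051 CPM in WT. In each of these lists 0 genes passed with 6 libraries, and no listed gene analysed was at 0 in all libraries.

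The most abundant markers of these lists differed in which library was highest. Elane, neutrophil elastase, stood at 1613, 1357 and 1798 CPM in P95H/+, against 1024, 1343 and 2337 CPM in WT, and its differences were 0.66, 0.02 and -0.38 in numbers 1, 2 and 3. Ngp, a protein of later neutrophil granules, stood at 64.3, 55.1 and 457 CPM in P95H/+, against 203, 46.5 and 75.2 CPM in WT, and was highest in P95H/+ replicate 3. S100a8, a calcium-binding protein of neutrophils, stood at 103 to 171 CPM in P95H/+ and 84.0 to 171 CPM in WT. Prss34, a mast cell and basophil protease, stood at 69.1, 89.6 and 79.7 CPM in P95H/+, against 124, 108 and 73.3 CPM in WT, and was lower in WT replicate 3 than in the other WT libraries. Hdc, the enzyme that makes histamine, stood at 150, 155 and 184 CPM in P95H/+, against 141, 115 and 178 CPM in WT. Unlike Prss34, Hdc was higher in WT replicate 3 than in the other WT libraries. F13a1 and Ly6c2 of monocytes, Car2 and Car1 of erythroid cells, Pax5 and Ebf1 of B cells, and Myb and Kit of progenitors ran from -0.08 (Car1) to 0.32 (Car2) in log2 fold change, and 0 of these 8 passed. The part of other cells in the values of the eosinophil genes was not tested.

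**Figure D5:**
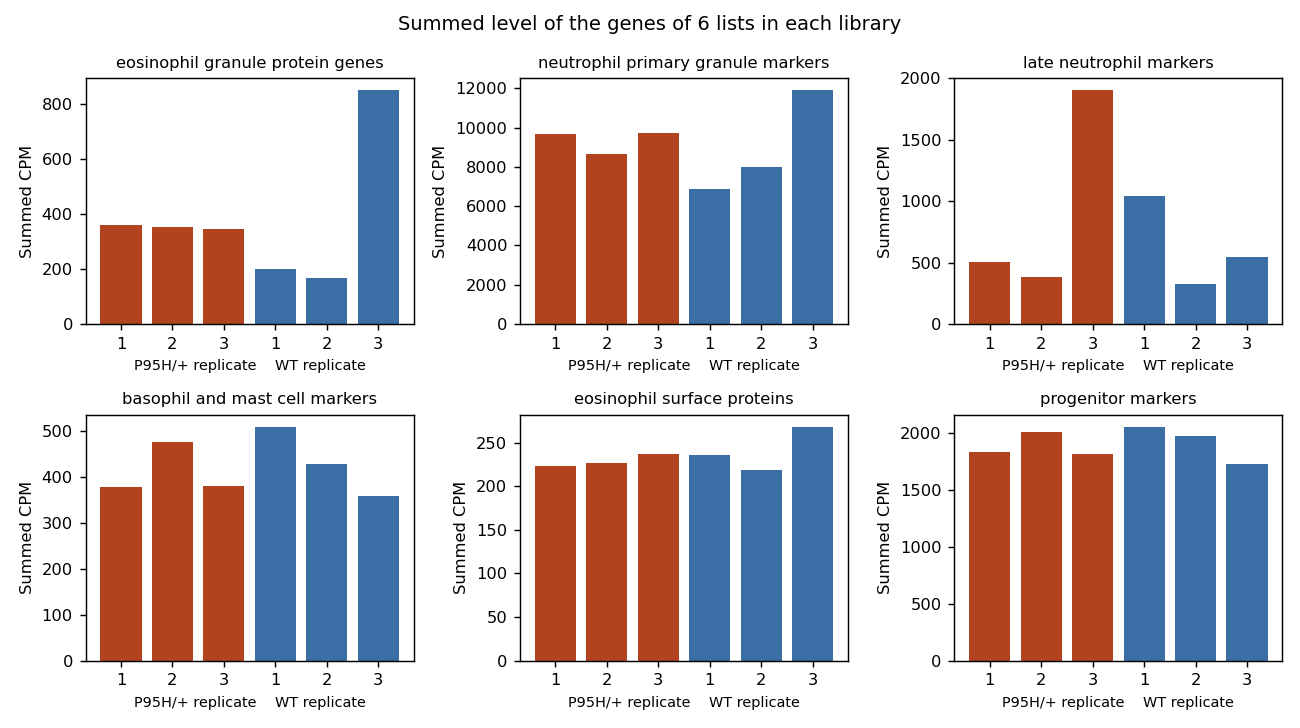
Summed CPM (vertical axes, from 0) of the 8 eosinophil genes and of 5 lists of other genes in the 3 P95H/+ libraries (left, orange) and the 3 WT libraries (right, blue). The eosinophil sum is 344 to 359 in P95H/+ and 166 to 850 in WT, while the late neutrophil sum is highest in P95H/+ replicate 3.

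The genes whose profile over the 6 libraries was most like the mean profile of the 8 genes were Tg, Ptgs1, Zfp697, Tmem177, Ttc21a, Snora62, Ppp1r3e and Mblac1. They were chosen among 10907 genes of at least 2 CPM by the root mean square difference of centred log2(CPM + 0.5), which was 0.26 for Tg and 0.35 for Mblac1, against a median of 0.67. Ptgs1, a cyclooxygenase gene that makes prostaglandin precursors, stood at 58.6, 49.3 and 59.8 CPM in P95H/+, against 41.2, 33.6 and 75.9 CPM in WT. Tg, the gene of thyroglobulin, stood at 2.31, 1.64 and 2.42 CPM in P95H/+, against 1.48, 1.18 and 4.51 CPM in WT. Tmem177 stood at 11.4, 11 and 12.4 CPM in P95H/+, against 8.65, 8.81 and 18.5 CPM in WT. In 7 of the 8 genes every P95H/+ library lay above WT replicates 1 and 2 and below WT replicate 3, which the choice by likeness favours. The exception was Zfp697, at 2.49 CPM in P95H/+ replicate 1 and 2.74 CPM in WT replicate 1.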

How the data were processed

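Total RNA of sorted cells was depleted of ribosomal RNA, and stranded libraries were sequenced from both ends, per the labels. The submitters' processing notes name the build mm10 and, with no role or setting, limma, edgeR, Subread 1.5.1 with featureCounts, Picard 1.96, STAR 2.5.3a, cutadapt and Trim Galore, and whether counting used strand is not given in the sources used here. The authors deposited raw counts for 26027 genes in 6 libraries, from which all results start. The CPM tables deposited by the authors served as a check: unfiltered CPM equalled count over library total within 5e-04, and all 8 genes were in the filtered table of 15466 genes.

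The comparison of genotypes used edgeR 4.0.16 under R 4.3.3 (TMM scaling, filterByExpr, robust quasi-likelihood F test, two-sided, Benjamini-Hochberg over 17144 genes, threshold 0.05). SE is the absolute log2 fold change over the square root of F. DESeq2 1.42.0 and limma 3.58.1 were alternatives. All 8 genes passed the filter on low counts. The members and lists were chosen with earlier results of these data known. Of each other list the genes past the test, or else the 2 most abundant, were named by rule. Gata1, Cebpe, Csf2rb, Ccr3, Lpo, Prtn3, Prss57, Ctsg and Ms4a3 were named after their values were seen. Positions, transcripts and GC content came from GENCODE M21, and promoter sequences from RefSeq on GRCm38.p6. The GC correction used a natural spline with 4 degrees of freedom. Intervals on counts cover counting error only. The edgeR fit was tested on simulated data.

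Deviations from group means correlated across genes between libraries of the same replicate number, at 0.418, 0.414 and 0.656 for numbers 1, 2 and 3. Pairs of unlike number within 1 and 2 were as high, at 0.451 and 0.519, so the values do not single out pairs there. In number 3 both libraries stood apart by GC content. The labels do not state an animal or day shared by libraries of the same number. Differences within a number are therefore not differences of known pairs.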

Additional observations from a re-analysis of the deposited data

Results flagged for a closer look

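Alox15 was lower in both female P95H/+ libraries than in the female WT library, with a mean log2(CPM + 0.5) difference of -0.62. It was higher in the male P95H/+ library than in both male WT libraries, with a mean difference of 1.18. Against WT replicate 3 alone the difference was 0.36. The mean differences were thus opposite in the 2 sexes, with 1.79 between them. No test of this is given for Alox15, since the genes were chosen on differences between the same libraries. Female WT is a single library of 54 weeks and male P95H/+ a single library that stood apart by GC content. Across all genes a genotype by sex term in edgeR's quasi-likelihood test called 1 of 17144 genes (1263 before adjustment), and 0 of the 25 named genes of the other lists.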

How the results depend on the processing

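The number of genes called, 0 with all 6 libraries, was 8 with DESeq2, 97 with limma voom and sample quality weights, and 1 with the replicate block, with or without the GC correction. Leaving out a library gave 0 to 1, the 1 without WT replicate 3, and leaving out replicate 3 of both genotypes gave 144. Of the genes of the other lists, 1 (Lck) was called with quality weights and 2 (Klf4 and Slc4a1, both lower in P95H/+) without replicate 3 of both genotypes, and 0 without any single library. The median log2 fold change of the 8 genes, -0.11, was 0.91 with quality weights, ran from -0.48 to 0.86 when a library was left out, and was 0.99 without replicate 3 of both genotypes. It was 0.27 with the replicate block, 0.25 with limma voom and 0.09 with sex added, where Epx was at 0.52. Of 143 fold changes of single members under other settings, 43 turned sign and 20 moved by more than the spread between replicates. Of 450 for named genes of the lists, 79 turned sign and 0 were called. The order of levels per kilobase was the same for all 28 pairs of members when exon lengths were summed. Il5ra could not be fitted in the setting that needs above 1 CPM in 3 libraries. Depth limits Il5ra, at 7 to 26 counts, most. The cause of these shifts was not tested.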
